A study of Ovis aries with 6 samples.

Results

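Mitochondrial fatty acid oxidation enzymes were measured by RNA sequencing in sheep cells of the adipose stromal vascular fraction, the mixed cell fraction of fat that contains adipocyte precursors. The rule took the rows of the deposited FPKM table whose symbol was CPT1A, CPT2, ACADM, ACADVL, ACADS, HADHA, HADHB, HADH, ACAA2 or ETFDH. Of these 10 symbols, 8 were in the table of 26425 rows, and ACADM and ACAA2 were not analysed here. In 3 samples MEOX2, a mesodermal homeobox transcription factor, was overexpressed, and 3 samples labelled NC formed the control group. The labels give adipocyte as the cell type of all 6 samples, and all column names carried the prefix pHBLV. The sources used here do not give the time in culture, the age or breed of the animals, or whether samples came from separate animals or cultures, so the p-values here cover the sample-to-sample spread alone, and that spread may be technical.

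Fatty acids are burned in the mitochondrial matrix. Long acyl chains are passed from coenzyme A to carnitine by CPT1 on the outer membrane, carried across the inner membrane, and returned to coenzyme A by CPT2. Each turn of the oxidation spiral then uses an acyl-CoA dehydrogenase chosen by chain length, a hydratase, a hydroxyacyl-CoA dehydrogenase and a thiolase, and releases acetyl-CoA, while the electrons of the dehydrogenases reach the respiratory chain through ETF and its oxidoreductase ETFDH. Entry through CPT1 is held back by malonyl-CoA, and many genes of the pathway are known targets of PPAR nuclear receptors. In fat cells the pathway competes with storage of fatty acids as triglyceride.

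The values were FPKM, reads scaled to gene length and library size, and whole reads recovered from them totalled 11772772 to 12230863 per library. MEOX2 itself reached 107.7 to 152.7 FPKM in the overexpressing samples, against 9.03 to 10.8 FPKM in NC samples. On the second principal component of all genes tested (22.2% of variance), NC sample 3 lay far from the other 5 libraries, and log2 changes without NC sample 3 are also given for the 6 enzymes in which they moved most. Coordinates are those of the deposited table, and the sources used here do not name its genome build.

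None of the 8 enzymes passed the test. The test was limma on log2(FPKM + 1) over the 13121 genes that averaged 1 FPKM or more, adjusted by Benjamini-Hochberg. At a threshold of 0.05 it called 2.67% of these genes. All 8 enzymes passed that filter on low values. CPT1A lay nearest to the threshold (limma adjusted p = 0.0520), and 2 of the 8, CPT1A and ETFDH, had an unadjusted p under 0.05, against 13.4% of all genes. With limma voom on the recovered reads CPT1A was called, 1 of 8 enzymes, against 4.18% of all genes. The log2 change was negative for 6 of the 8 and for 50.7% of all genes, with a median of -0.14 over the 8 and -0.0027 over all genes tested. In 4 of the 8, CPT1A, ETFDH, HADHA and HADHB, every MEOX2 value lay below every NC value, which held for 9.33% of all genes, and none of the 8 had every MEOX2 value above every NC value, against 9.6% of all genes. Transcripts were measured in bulk, so fewer cells of a type and less RNA per cell cannot be told apart.

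**Figure D1:**
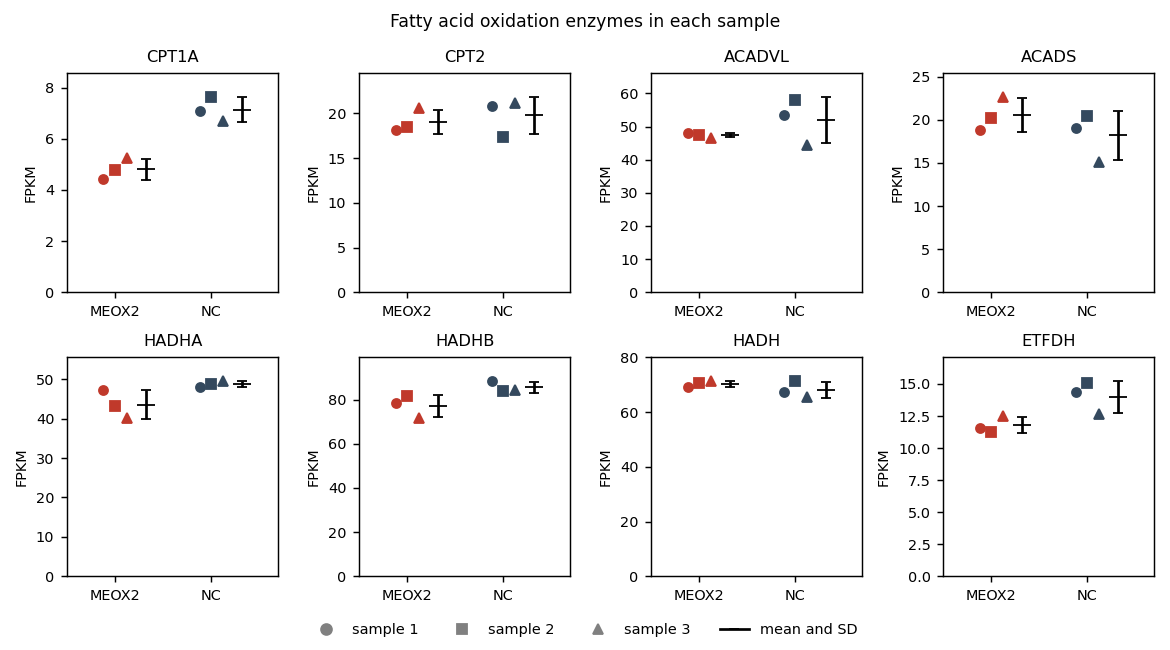
FPKM of the 8 enzymes in each sample, with MEOX2 samples left and NC samples right in each panel; marker shapes stand for samples 1 to 3 and bars for the mean and SD (n = 3). CPT1A, the enzyme with the smallest p, has its groups apart, with 4.41 to 5.23 FPKM in MEOX2 samples and 6.70 to 7.64 FPKM in NC samples.

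The enzymes spanned a wide range of length-scaled levels, and their order was nearly the same in both groups. In MEOX2 samples mean FPKM decreased in the order HADHB (77.1), HADH (70.4), ACADVL (47.4), HADHA (43.6), ACADS (20.6), CPT2 (19.1), ETFDH (11.8) and CPT1A (4.81). In NC samples the means were 85.5 FPKM for HADHB, 68.1 for HADH, 52.0 for ACADVL, 48.8 for HADHA, 19.8 for CPT2, 18.2 for ACADS, 14.01 for ETFDH and 7.14 for CPT1A. In both groups the sample ranges overlapped between the neighbours ACADVL and HADHA and between the neighbours CPT2 and ACADS, and did not overlap between any other neighbours in the order. Thus the enzyme that admits long chains was the lowest of the 8 per length, and the trifunctional protein subunit HADHB the highest. Recovered reads per library ranged from 227 for ACADS in one NC sample to 3212 for HADHA, so that counting error alone ranged from 6.64% at that ACADS value to 1.76% at that HADHA value.

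CPT1A, the outer membrane carnitine palmitoyltransferase that controls entry of long chains (ENSOARG00000016505, chromosome 21, 45448799 to 45488917, minus strand), had 4.41, 4.78 and 5.23 FPKM in MEOX2 samples 1 to 3, against 7.09, 7.64 and 6.70 FPKM in NC samples 1 to 3. The groups did not overlap, and the gap between them was wider than the range within either. The means were 4.81 ± 0.410 FPKM in MEOX2 samples and 7.14 ± 0.476 FPKM in NC samples (SD, n = 3 each), a ratio of 0.673 (MEOX2 over NC). These values rested on 342 to 436 reads per MEOX2 library and 563 to 637 reads per NC library. The log2 change was -0.49 (SE 0.11, 95% interval -0.73 to -0.25), with a limma adjusted p of 0.0520, and without NC sample 3 it was -0.53 (limma adjusted p = 0.0692). CPT1A was called with limma voom on recovered reads (log2 change -0.58, adjusted p = 0.00156), with a robust variance model (limma adjusted p = 0.0473) and without an intensity trend (0.0481), and in none of the 6 leave-one-library-out fits (limma adjusted p from 0.0692 to 0.174). By exact permutation of the FPKM values (two-sided), p was 0.1, the lowest that 3 samples against 3 can give.

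CPT1A was the highest of the 3 CPT1 genes per length in both groups. CPT1C, the isoform best known from brain, averaged 1.55 ± 0.336 FPKM in MEOX2 samples and 1.84 ± 0.287 FPKM in NC samples (SD, n = 3 each), and was not called (limma adjusted p = 0.772). CPT1B, the muscle isoform, averaged 0.392 ± 0.0172 FPKM in MEOX2 samples and 0.373 ± 0.0982 FPKM in NC samples and did not pass the filter on low values. CPT2, the inner membrane partner that regenerates acyl-CoA in the matrix (chromosome 1, 27463127 to 27485557), had 18.2, 18.4 and 20.6 FPKM in MEOX2 samples, against 20.9, 17.4 and 21.1 FPKM in NC samples. The groups overlapped, and the log2 change of -0.049 had a 95% interval from -0.28 to 0.18 (limma adjusted p = 0.899). Without NC sample 3 it was -0.0020 (limma adjusted p = 0.995). The carrier between them, SLC25A20, which exchanges acylcarnitine for carnitine across the inner membrane, averaged 12.9 ± 0.799 FPKM in MEOX2 samples and 12.2 ± 0.739 FPKM in NC samples (SD, n = 3 each), and was not called (limma adjusted p = 0.821).

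Of the acyl-CoA dehydrogenases, ACADVL, which acts on very long chains at the inner membrane (chromosome 11, 26561092 to 26570595), had 48.1, 47.5 and 46.7 FPKM in MEOX2 samples, against 53.6, 58.0 and 44.3 FPKM in NC samples. The MEOX2 values lay close together, between NC sample 3, the lowest of the 6, and the other NC samples. Its log2 change was -0.12 (95% interval -0.35 to 0.11, limma adjusted p = 0.697), and without NC sample 3 it was -0.23 (limma adjusted p = 0.191). ACADVL overlaps DLG4 by 1733 bases, DVL2 by 574 bases and an unnamed miRNA row by 89 bases, all on the opposite strand. The sources used here do not give the strand setting of the read counting, so reads in those stretches cannot be told apart. ACADS, which acts on short chains (chromosome 17, 62600483 to 62620320), had 18.8, 20.2 and 22.7 FPKM in MEOX2 samples, against 19.1, 20.4 and 15.1 FPKM in NC samples. NC sample 3 was again the lowest of the 6 and the groups overlapped. The log2 change was 0.17 (95% interval -0.11 to 0.46, limma adjusted p = 0.624) with all samples and 0.051 without NC sample 3 (limma adjusted p = 0.874). ACADL, the long-chain dehydrogenase, which is outside the 10 symbols, averaged 7.41 ± 0.208 FPKM in MEOX2 samples and 8.32 ± 1.07 FPKM in NC samples (SD, n = 3 each) and was not called (limma adjusted p = 0.653). A row of 305 bases with no symbol, which the table describes as similar to the medium-chain dehydrogenase, held 0 to 3 reads per library and was not counted among the members.

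The mitochondrial trifunctional protein joins hydratase, long-chain hydroxyacyl-CoA dehydrogenase and thiolase activities, with HADHA as its alpha and HADHB as its beta subunit. Both genes lie on chromosome 3 on opposite strands, HADHA at 33293757 to 33338485 (minus strand) and HADHB at 33343440 to 33367039 (plus strand), with their starts facing each other across 4954 bases. HADHA had 47.3, 43.3 and 40.1 FPKM in MEOX2 samples, against 48.1, 48.7 and 49.6 FPKM in NC samples. HADHB had 78.3, 81.5 and 71.5 FPKM in MEOX2 samples, against 88.5, 83.8 and 84.2 FPKM in NC samples. In both genes all MEOX2 samples were lower than all NC samples, although for HADHA the highest MEOX2 sample lay within 1 FPKM of the lowest NC sample. The ratio of means was 0.892 for HADHA and 0.901 for HADHB. The log2 changes were -0.16 for HADHA (95% interval -0.35 to 0.022) and -0.15 for HADHB (-0.32 to 0.024), with limma adjusted p values of 0.448 and 0.462.

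HADH, the soluble hydroxyacyl-CoA dehydrogenase of medium and short chains (chromosome 6, 17327261 to 17370182), had 69.2, 70.7 and 71.2 FPKM in MEOX2 samples, against 67.5, 71.4 and 65.5 FPKM in NC samples. The groups overlapped, and the log2 change of 0.047 had a 95% interval of -0.11 to 0.21 (limma adjusted p = 0.857), the narrowest of the 8, and without NC sample 3 the change was 0.019 (limma adjusted p = 0.935). ETFDH, which passes electrons from the dehydrogenases to ubiquinone (chromosome 17, 40060886 to 40102313, minus strand), had 11.6, 11.3 and 12.5 FPKM in MEOX2 samples, against 14.3, 15.0 and 12.6 FPKM in NC samples. The groups did not overlap, but the highest MEOX2 sample and NC sample 3 were nearly equal. Its log2 change was -0.23 (95% interval -0.45 to -0.012), with an unadjusted p of 0.0410 and a limma adjusted p of 0.337, and without NC sample 3 it was -0.30 (limma adjusted p = 0.167). ETFDH overlaps an unnamed protein-coding row on the opposite strand by 741 bases, and that row had a mean of 27.4 FPKM over the 6 samples.

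Ratios within a sample do not depend on library size, and 4 were computed with the single values already known. The ratio of CPT1A to CPT2 was 0.243, 0.259 and 0.254 in MEOX2 samples, against 0.340, 0.439 and 0.317 in NC samples. ACADS to ACADVL was 0.390, 0.426 and 0.486 in MEOX2 samples, against 0.356, 0.352 and 0.340 in NC samples, so the short-chain enzyme was higher relative to the very-long-chain one in each MEOX2 sample, while neither gene was separated alone. HADHA to HADHB was 0.605, 0.531 and 0.561 in MEOX2 samples, against 0.544, 0.582 and 0.589 in NC samples. These 2 subunits of one protein kept overlapping ratios, with means of 0.566 ± 0.0373 in MEOX2 samples and 0.571 ± 0.0244 in NC samples (SD, n = 3 each). ACAT1 to HADHB, a pair of thiolases, was 0.567, 0.631 and 0.678 in MEOX2 samples, against 0.777, 0.765 and 0.793 in NC samples. Exact two-sided permutation tests gave p = 0.1 for 3 of the ratios, the smallest value possible, and p = 0.9 for HADHA to HADHB (0.133 and 0.9 after adjustment over the 4 ratios).

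**Figure D2:**
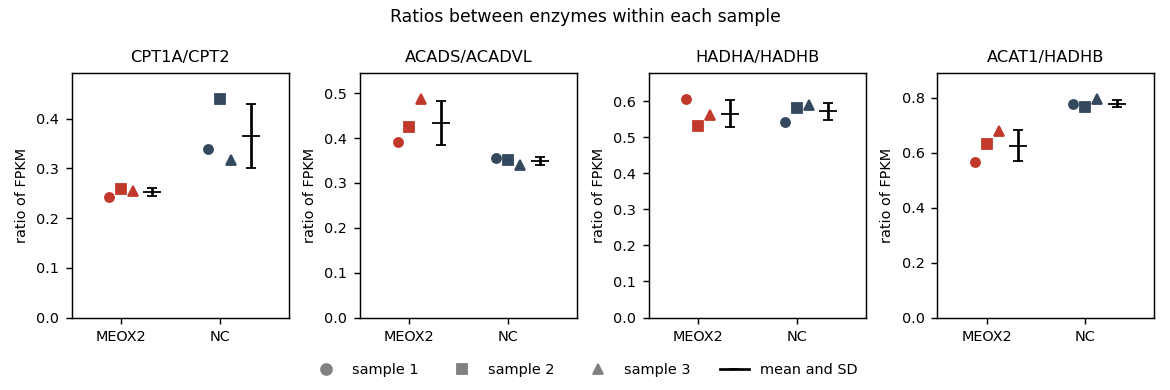
Ratio of FPKM between enzyme pairs in each sample, MEOX2 samples left and NC samples right, with the mean and SD (n = 3). CPT1A/CPT2 and ACAT1/HADHB lie lower in the MEOX2 samples and ACADS/ACADVL higher, while HADHA/HADHB overlaps between groups, with means of 0.566 in MEOX2 samples and 0.571 in NC samples.

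The 8 enzymes did not share one pattern over the 6 samples. Pearson correlations of log2(FPKM + 1) ranged from -0.74 between ACADS and HADHA to 0.92 between CPT1A and ETFDH. ACADS and HADH correlated at 0.90 and HADHA and HADHB at 0.80. The 6 points share their group structure, libraries and depth, so these values only describe the samples. Genes most like the mean standardised profile of the 8 were ADIPOR2, an adiponectin receptor (r = 0.997), CDC20, an activator of the anaphase-promoting complex (0.992), and MRPS2, a mitochondrial ribosomal protein (0.987), with 2 rows lacking a symbol among the nearest 5. In all, 210 of 13113 other genes had r above 0.9.

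Among other mitochondrial oxidation genes, 1 passed the test. Of 23 listed genes, 18 were tested, ACAT1 fell, and 17 were not called, with a median log2 change of -0.022. For this list and those below, the share called by limma over all genes tested was 2.67%. ACAT1, the mitochondrial acetoacetyl-CoA thiolase of ketone body and isoleucine breakdown (chromosome 15, 17243209 to 17256984), had 44.3, 51.4 and 48.4 FPKM in MEOX2 samples, against 68.8, 64.1 and 66.8 FPKM in NC samples. The groups were well separated, and the log2 change was -0.46 (SE 0.080, limma adjusted p = 0.0210). The call was lost in 4 of the 6 leave-one-library-out fits, those without MEOX2 sample 1 (limma adjusted p = 0.0740), MEOX2 sample 3 (0.0880), NC sample 1 (0.112) or NC sample 2 (0.0520). ACOT9, an acyl-CoA thioesterase, averaged 89.9 ± 5.34 FPKM in MEOX2 samples and 81.5 ± 2.75 FPKM in NC samples (SD, n = 3 each; limma adjusted p = 0.486). NUDT7, a peroxisomal coenzyme A hydrolase that was counted in this list, averaged 8.75 ± 0.976 FPKM in MEOX2 samples and 7.52 ± 0.861 FPKM in NC samples (SD, n = 3 each; limma adjusted p = 0.545). A row with no symbol on chromosome 23 (49604018 to 49635711) that the table assigns a thiolase domain averaged 34.9 ± 0.836 FPKM in MEOX2 samples and 36.4 ± 1.23 FPKM in NC samples, and was not called.

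**Figure D3:**
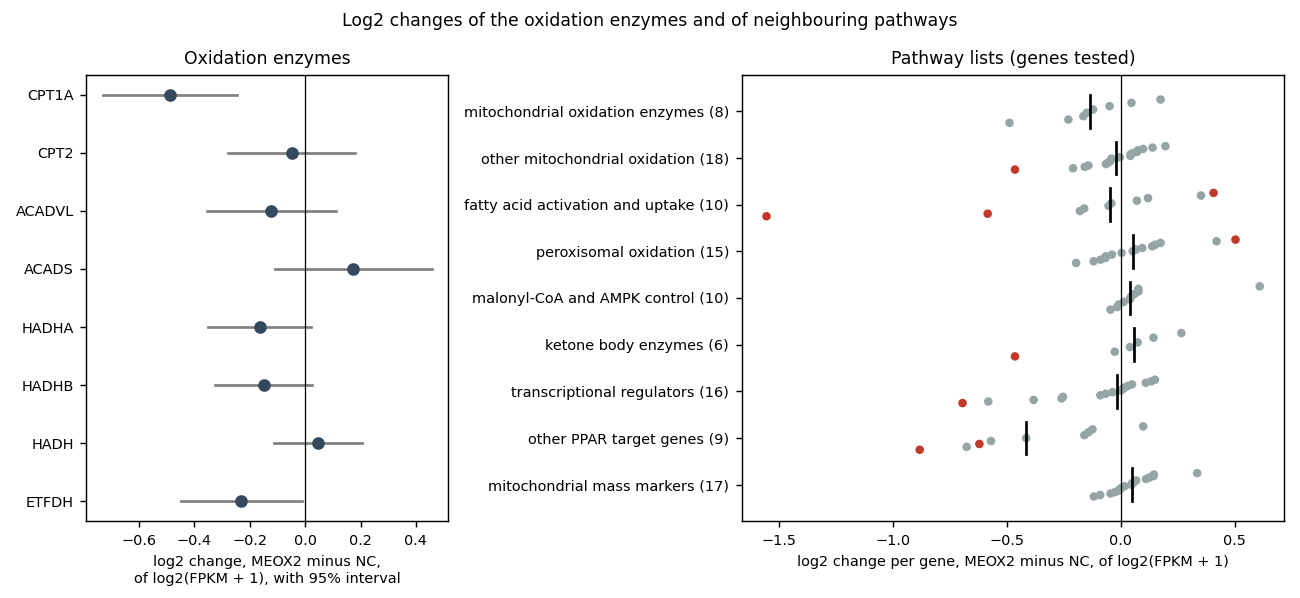
Left, log2 change of each of the 8 enzymes (MEOX2 minus NC, log2(FPKM + 1) scale) with its 95% interval. Right, the same log2 change for each tested gene of 9 lists, with the number tested in parentheses. Called genes are red, uncalled genes grey and the list median a black bar. The median is -0.14 for the 8 enzymes, -0.42 for other PPAR target genes and 0.047 for mitochondrial mass markers. The other PPAR target genes include FGF21, which passed the filter on low values only through NC.

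Ketone body enzymes other than ACAT1 were not called. OXCT1, which activates acetoacetate for use as fuel, averaged 19.6 ± 0.711 FPKM in MEOX2 samples and 16.1 ± 1.001 FPKM in NC samples (SD, n = 3 each; limma adjusted p = 0.180), with all MEOX2 values above all NC values. BDH2 averaged 47.2 ± 3.16 FPKM in MEOX2 samples and 42.6 ± 1.25 FPKM in NC samples (limma adjusted p = 0.501). Of the 6 genes tested in that list, ACAT1, which stands in both lists, fell and 5 were not called.

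Among genes of fatty acid activation and uptake, 10 of 14 were tested, of which 1 rose, 2 fell and 7 were not called. ACSL3, an acyl-CoA synthetase of the endoplasmic reticulum and lipid droplets, rose to 33.3 ± 2.05 FPKM in MEOX2 samples, against 24.9 ± 0.952 FPKM in NC samples (log2 change 0.41, limma adjusted p = 0.0370). This call was lost in 5 of the 6 leave-one-library-out fits, all except that without NC sample 3 (limma adjusted p 0.0497 to 0.161). ACSL1, the synthetase most tied to fat storage and oxidation in adipocytes, was not called. The carriers FABP4 and FABP5 fell by 1.55 and 0.58 on the log2 scale (limma adjusted p = 0.000324 and 0.0407). FABP4 also stands in the list of mature adipocyte markers, so its call is counted in both lists. The call of FABP5 was lost in 5 of the 6 leave-one-library-out fits (limma adjusted p up to 0.156).

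Peroxisomal oxidation, which shortens very long and branched chains before they enter mitochondria, was measured through 15 tested genes of 17, of which 1 rose and 14 were not called, with a median log2 change of 0.052. CROT, which links chain-shortened acyl groups to carnitine for export to mitochondria, had 15.8, 14.6 and 14.4 FPKM in MEOX2 samples, against 9.52, 9.46 and 11.9 FPKM in NC samples. Its log2 change was 0.50 (SE 0.11, limma adjusted p = 0.0467), with no overlap between groups. Only without NC sample 3 did the call hold among the 6 leave-one-library-out fits, whose limma adjusted p values ran from 0.0212 to 0.182. ACOX3, an oxidase of branched chains, averaged 15.3 ± 1.66 FPKM in MEOX2 samples and 11.2 ± 0.977 FPKM in NC samples (SD, n = 3 each; adjusted p = 0.0952 by limma and 0.0409 by limma voom), and PECR, an enoyl-CoA reductase, 19.4 ± 0.519 FPKM in MEOX2 samples and 22.4 ± 1.04 FPKM in NC samples (0.313).

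**Figure D4:**
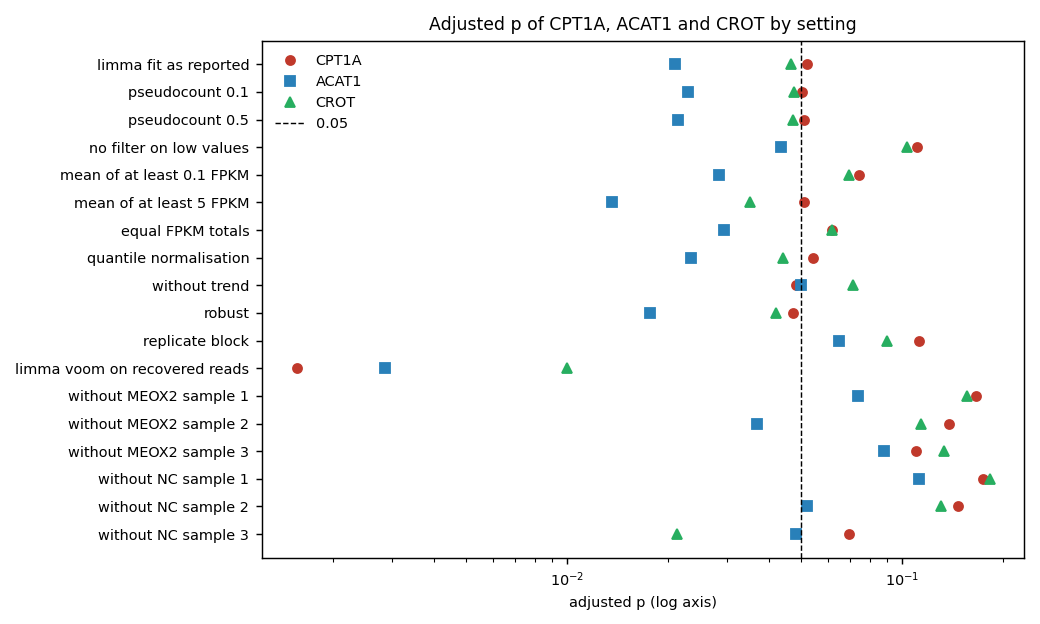
Adjusted p (log axis) of CPT1A, ACAT1 and CROT in the limma fit as reported and in 17 other settings, with the threshold of 0.05 as a dashed line. CPT1A lies left of the line in 3 settings, and ACAT1 and CROT lie right of it in most leave-one-library-out fits.

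Of 10 tested genes of malonyl-CoA and AMPK control, limma called none, while limma voom called ACACB, which was also the 1 gene with an unadjusted p below 0.05. ACACB, the acetyl-CoA carboxylase whose malonyl-CoA inhibits CPT1, had 13.6, 8.81 and 11.2 FPKM in MEOX2 samples, against 6.14, 7.03 and 7.56 FPKM in NC samples. All MEOX2 values were above all NC values, with a wide spread among the MEOX2 samples. The log2 change was 0.61 (SE 0.15), with an adjusted p of 0.0820 by limma, 0.00154 by limma voom, and 0.0422 by limma without MEOX2 sample 2. ACACA, the cytosolic carboxylase, averaged 9.02 ± 0.617 FPKM in MEOX2 samples and 8.79 ± 1.55 FPKM in NC samples (SD, n = 3 each). STK11, the kinase upstream of AMPK, and ACLY, which makes cytosolic acetyl-CoA, had log2 changes of 0.077 and 0.060 (limma adjusted p = 0.802 and 0.810).

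**Figure D5:**
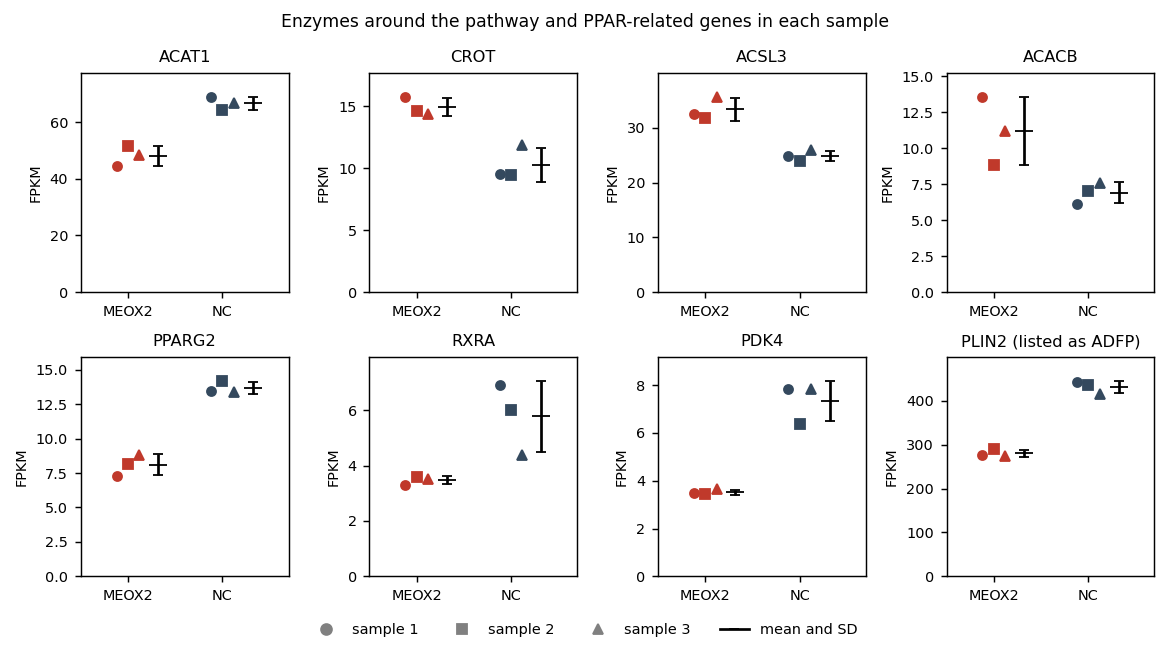
FPKM in each sample of ACAT1, CROT, ACSL3, ACACB, PPARG2, RXRA, PDK4 and PLIN2, MEOX2 samples left and NC samples right, with the mean and SD (n = 3). ACAT1, PPARG2, PDK4 and PLIN2 are lower in MEOX2 samples and CROT and ACSL3 higher, while RXRA and ACACB are separated without passing the test.

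Of 21 transcriptional regulators of the pathway, 16 were tested, PPARG fell and 15 were not called. PPARG, listed as PPARG2, averaged 8.09 ± 0.760 FPKM in MEOX2 samples and 13.7 ± 0.458 FPKM in NC samples (SD, n = 3 each; log2 change -0.69, limma adjusted p = 0.00875). RXRA, its partner receptor, had 3.31, 3.59 and 3.52 FPKM in MEOX2 samples, against 6.93, 6.02 and 4.38 FPKM in NC samples (limma adjusted p = 0.101, and 0.0259 without NC sample 3). NRIP1, a corepressor of nuclear receptors on oxidative genes, averaged 16.9 ± 0.616 FPKM in MEOX2 samples and 22.4 ± 3.19 FPKM in NC samples (adjusted p = 0.127 by limma and 0.0232 by limma voom). PPARA, the receptor best known for inducing fatty acid oxidation in liver, averaged 2.72 ± 0.130 FPKM in MEOX2 samples and 2.37 ± 0.432 FPKM in NC samples, and was not called (0.733). The coactivator PPARGC1A averaged 0.546 ± 0.151 FPKM in MEOX2 samples and 0.477 ± 0.114 FPKM in NC samples and did not pass the filter.

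Among other PPAR target genes, 14 of 17 were in the table and 9 were tested, of which 2 fell and 7 were not called. The log2 change was negative for 8 of the 9, with a median of -0.42, and the difference from the median of the oxidation enzymes was not tested. FGF21, 1 of the 8, averaged 0.686 FPKM in MEOX2 samples and 1.73 FPKM in NC samples, on 3 to 15 reads per library. It passed the filter on low values only through NC, so its negative sign followed from the filter. PDK4, a kinase that inhibits pyruvate dehydrogenase, had 3.48, 3.43 and 3.64 FPKM in MEOX2 samples, against 7.83, 6.38 and 7.83 FPKM in NC samples (log2 change -0.88, limma adjusted p = 0.00697). PLIN2, a lipid droplet coat protein listed as ADFP, had 276.8, 289.4 and 275.4 FPKM in MEOX2 samples, against 443.9, 435.3 and 416.0 FPKM in NC samples (log2 change -0.62, limma adjusted p = 0.00285). The groups were well separated in both genes, and both calls held in all 6 leave-one-library-out fits. PNPLA2, the triglyceride lipase ATGL, averaged 12.5 ± 2.01 FPKM in MEOX2 samples and 18.9 ± 2.003 FPKM in NC samples (SD, n = 3 each; limma adjusted p = 0.0602). PNPLA2 was called with a filter at 5 FPKM (limma adjusted p = 0.0399), with a robust variance model (0.0495) and with limma voom (0.0212).

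Of 20 listed mitochondrial mass markers, 17 were tested as transcripts, and mitochondrial content itself was not measured. Limma called none of them, limma voom called none and none had an unadjusted p below 0.05, with a median log2 change of 0.047. Their summed level was 1517 to 1581 FPKM in MEOX2 samples and 1412 to 1507 FPKM in NC samples. MFN2, a fusion protein of the outer membrane, averaged 20.2 ± 1.13 FPKM in MEOX2 samples and 18.2 ± 0.615 FPKM in NC samples, and HSPD1, a matrix chaperone, 129.1 ± 1.06 FPKM in MEOX2 samples and 119.6 ± 5.14 FPKM in NC samples (SD, n = 3 each). PHB2, an inner membrane scaffold, averaged 94.0 ± 3.52 FPKM in MEOX2 samples and 102.2 ± 6.27 FPKM in NC samples.

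Of 18 mature adipocyte markers, 14 were tested, 5 fell and 9 were not called, with a negative log2 change for 13 and a median of -0.64. Their part in the values of CPT1A and the other enzymes was not tested. Their summed level was 577.9 to 629.5 FPKM in MEOX2 samples and 776.2 to 931.5 FPKM in NC samples. Most of it was RBP4, which averaged 413.3 FPKM in MEOX2 samples and 464.9 FPKM in NC samples and was not called (limma adjusted p = 0.503). FABP4 averaged 79.6 FPKM in MEOX2 samples and 235.3 FPKM in NC samples, the largest difference in FPKM among these markers. ADIPOQ, FABP4, PLIN1, CIDEC and TUSC5 were the 5 that fell, while LEP was listed at 0 in all 6 samples. Among the 5, TUSC5 had 4 reads in each MEOX2 library and 10 to 19 per NC library. TUSC5 averaged 0.624 FPKM in MEOX2 samples and 2.21 FPKM in NC samples, so it passed the filter on low values only through NC. LIPE, listed as HSL and not called, also averaged under 1 FPKM in MEOX2 samples and passed only through NC. The negative signs of TUSC5 and LIPE therefore followed from the filter. Both genes are counted among the 13 negative changes and in the median of -0.64. PLIN1 had 14 to 27 reads per MEOX2 library and 55 to 62 per NC library, and CIDEC had 20 to 26 and 46 to 52. Leave-one-library-out fits ended the calls of PLIN1 and CIDEC in all 6 cases and that of TUSC5 in 5 (limma adjusted p up to 0.0872, 0.0958 and 0.148).

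The samples are labelled adipocyte, and stromal genes were far above the mature adipocyte markers in summed level. Most of that stromal sum came from the matrix genes COL1A1, COL3A1 and DCN. Of the other markers in the list, CD34 and DLK1 were low. CD34 averaged 0.642 FPKM in MEOX2 samples and 1.37 FPKM in NC samples, and DLK1 reached at most 0.211 FPKM. Means in MEOX2 and NC samples were 1325 and 1143 FPKM for LUM, 206.2 and 209.3 for THY1, and 173.6 and 150.4 for PDGFRA. They were 134.8 and 136.3 FPKM for PDGFRB, 147.0 and 172.6 for NT5E, and 16.0 and 19.9 for ENG. COL1A1, a chain of type I collagen, averaged 10594 ± 759 FPKM in MEOX2 samples and 9410 ± 767 FPKM in NC samples (SD, n = 3 each; limma adjusted p = 0.504). The 11 stromal and preadipocyte markers summed to 21184 to 23134 FPKM in MEOX2 samples and 20320 to 21698 FPKM in NC samples. Of the 10 tested, limma called none and limma voom 1 (ENG, adjusted p = 0.0273), and 5 had an unadjusted p below 0.05, 3 of them lower and 2 higher in MEOX2 samples. The smallest p values in that list were those of ENG (log2 change -0.30), NT5E (-0.23) and CD34 (-0.54), with limma adjusted p values of 0.144, 0.151 and 0.223. CD34 rested on 5 to 13 reads per MEOX2 library and 17 to 22 per NC library, and passed the filter on low values only through NC. The 2 higher ones, chosen after their values were seen, were PDGFRA (log2 change 0.21, limma adjusted p = 0.326) and LUM (0.22, 0.337). Of the 10 tested markers, 3 had all MEOX2 values above all NC values, PDGFRA and LUM among them, and 3 had all below. Over all genes tested these shares were 9.6% above and 9.33% below.

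Markers of other cell types were mostly low. Of 10 skeletal muscle markers, 8 were in the table and none passed the filter, with sums of 0.554 to 0.877 FPKM in MEOX2 samples and 0.544 to 0.820 FPKM in NC samples, and MYH1, TNNC2, MYOD1 and MYOG were listed at 0. Of 9 endothelial markers, 7 were in the table and EGFL7 alone was tested, at 2.52 ± 0.763 FPKM in MEOX2 samples and 2.15 ± 0.835 FPKM in NC samples (SD, n = 3 each). Of 12 macrophage and leukocyte markers, 4 were tested. Limma called none of these, while limma voom called CD163, the 1 gene among them with an unadjusted p below 0.05. The sum was 123.0 to 134.6 FPKM in MEOX2 samples and 115.1 to 122.8 FPKM in NC samples, most of it CD14, at 117.0 ± 7.01 FPKM in MEOX2 samples and 105.2 ± 4.42 FPKM in NC samples (SD, n = 3 each). CD163 averaged 1.38 ± 0.0442 FPKM in MEOX2 samples and 2.32 ± 0.420 FPKM in NC samples, and CD68 averaged 7.57 ± 1.56 FPKM in MEOX2 samples and 9.37 ± 0.469 FPKM in NC samples. MS4A1 was listed at 0 in every sample and PTPRC reached at most 0.0424 FPKM.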

How the data were processed

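RNA from 3 MEOX2 and 3 NC samples was extracted with TRIzol and sequenced from NEBNext Ultra libraries, per the labels' protocols. The authors deposited 1 table of FPKM values per gene. The submitters' processing notes name HISAT2 2.0.5, DESeq2 1.20.0, CASAVA 1.8, featureCounts 1.5.0-p3 and fastp, without roles. The sources used here do not give the genome build, annotation or strand setting. Multiplied by gene length, 100% of the nonzero FPKM values came out as whole reads (within 0.001 of a read), and these reads were used for limma voom. The implied library size was 0.967 to 1.02 times the read total.

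Log2(FPKM + 1) was fitted with limma 3.58.1 in R 4.3.3 (intensity trend, no covariates) for genes averaging 1 FPKM or more, adjusted over all genes tested at 0.05. Each log2 change is MEOX2 minus NC and understates the change of low genes. Ratios were tested with exact permutation tests (scipy 1.17.1), and tables and figures were made with pandas 2.3.3, numpy 2.4.6 and matplotlib 3.10.9 in Python 3.11.15. On simulated reads for this comparison (13121 genes, n = 3 per group), the fit made 132 calls, 7 of them false. It recovered 83% of 100 genes simulated with a 2-fold change and 42% of 100 with a 1.5-fold change. Every gene was simulated with the same spread beyond counting error (dispersion 0.0053). Recovery and false calls may therefore differ for real genes, whose spread varies.

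The enzymes, and 13 further lists of 186 symbols, were chosen with earlier results of these data known. Symbols were matched directly (164), by synonym in the RefSeq table of ARS-UI_Ramb_v3.0 (3) or by an older name (2), and 17 were not matched. Named genes were the measured enzymes, MEOX2, all called genes of each list or, below 3, those with the smallest p up to 3 in all, and the 5 genes most like the enzymes. ACSL1, ACACA, ACADL, CPT1B, CPT1C, SLC25A20, PPARA, PPARGC1A, FGF21, RBP4, LIPE, COL1A1, COL3A1, DCN, LUM, THY1, PDGFRA, PDGFRB, DLK1, LEP, PTPRC and other markers listed at 0 were named with their values known. Alternatives covered pseudocounts, filters, scalings and variance models, a replicate block, limma voom and each library left out.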

Additional observations from a re-analysis of the deposited data

How the results depend on the processing

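All 8 enzymes kept the sign of their log2 change in all 17 alternatives run. The count of enzymes called, 0 as reported, was 1 (CPT1A) without the trend, with the robust fit and with limma voom, and 0 in the other 14, including every fit with a library left out. With other scalings, 4 enzymes again had no overlap between groups. With single libraries left out the count was 4 to 6, but leaving out a library cannot create an overlap, so it could not fall below 4. These settings were added after seeing the data, and the share of all genes was not computed for them. Over all genes the count of 350 was 194 without a filter, 548 with limma voom and 117 to 276 with single libraries left out. MEOX2 stayed past the threshold in each setting. Same-numbered samples did not deviate together (r of -0.07, 0.02 and -0.0042 over genes, and not every sample correlated best with its own number), so the numbers were not taken as pairs. The replicate block gave 242 called genes and no enzyme, and ACAT1 lost its call with it (adjusted p = 0.0647). ACSL3 and CROT, called as reported, lost their calls without a filter, with equal FPKM totals, without the trend and with the block, and CROT also with a filter at 0.1 FPKM (adjusted p 0.0542 to 0.104). FABP5 lost its call without a filter (0.111), with a filter at 0.1 FPKM (0.0641) and without the trend (0.0853), TUSC5 without a filter (0.0715), with the block (0.0596) and with limma voom (0.0696), PLIN1 without a filter (0.0519) and CIDEC with the block (0.0671). The uncalled marker EGFL7 changed sign without NC sample 3, with log2 changes from -0.025 to 0.36 with single libraries left out. Depth limits CPT1A, ETFDH, CPT2 and ACADS most, at 227 to 637 reads per library, and whether protein or flux changed was not measured.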
